A study of Homo sapiens with 36 samples.

Results

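The clustered protocadherins were taken as every gene of the deposited count table whose symbol is PCDHA, PCDHB or PCDHG, with an optional letter and a number. This gave 53 of 36601 genes: 15 of the alpha cluster, 16 of the beta cluster and 22 of the gamma cluster, the last with 12 gamma-A, 7 gamma-B and 3 gamma-C isoforms. Bulk polyA RNA was sequenced from HEK293, an established line of human embryonic kidney cells, in a study of cells whose proteins carry a HaloTag, a tag that binds its ligands covalently. HyT36 is a hydrophobic HaloTag ligand that makes the tagged protein misfold, and DMSO is its vehicle. There were 4 groups of 3 libraries: clone 5 with 25 µM HyT36, clone 5 with DMSO, clone 4 with 25 µM HyT36 and clone 4 with DMSO. Each line is 1 clone, so a difference between them is one between 2 single clones and cannot be told apart from other ways in which any 2 clones differ. The sources used here do not give the protein tagged in each clone, nor which of the named exposures, 2 or 12 h, applies to the bulk cultures.

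Clustered protocadherins are cell surface adhesion proteins of the cadherin superfamily that pair with identical isoforms on a facing cell. In neurons they give each cell a surface identity, by which its own branches recognise and avoid each other. Each alpha or gamma isoform is made from its own promoter and first exon, which is spliced to constant exons shared by the whole cluster, while beta genes are not spliced to shared exons. Most of these promoters hold a conserved element with a CGCT core, CTCF binds at this element, and cohesin loops join chosen promoters to a distant enhancer. The C-type isoforms (PCDHAC1, PCDHAC2, PCDHGC3, PCDHGC4 and PCDHGC5) stand at the end of the alpha and gamma clusters and are regulated apart from the others, which are called alternate isoforms.

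All libraries had between 22853946 and 28635511 gene counts, of which 3045 to 4598 fell on the members, so that 1 CPM (counts scaled to library size by edgeR's TMM method) stood for 23.0 to 27.7 reads. Reads of the shared constant exons belong to no single isoform, and the sources used here do not say how they were counted. Ambiguous reads made up 6.75 to 7.15% of all deposited counts. Beta genes are close paralogs and may share or lose reads, so their values are uncertain to that degree. The HEK293 markers PAX2, CKB, LIN28B and INA were present in every library, while the neurofilaments NEFL and NEFM were near 0. The summed level of 15 epithelial markers fell into 2 separate ranges, 6.85 to 9.0 CPM in 6 libraries (clone 5 with HyT36, all 3; clone 4 with HyT36, replicate 1; clone 4 with DMSO, replicates 2 and 3) and 57.2 to 111 CPM in the other 6. In clone 5 this split is the same as that between HyT36 and DMSO, so the marker level and the ligand cannot be told apart there. Whether replicates came from separate cultures is not stated in the labels. The p-values therefore reflect only the spread among these libraries, and that spread may be technical.

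In summed reads, clone 5 had more beta and alpha and less gamma protocadherin RNA than clone 4. The beta cluster summed to 125 ± 0.806 CPM in clone 5 with HyT36 and 121 ± 3.45 CPM in clone 5 with DMSO, against 65.3 ± 2.16 CPM in clone 4 with HyT36 and 64.2 ± 2.41 CPM in clone 4 with DMSO (SD, n = 3 each, here and for the sums that follow). The gamma cluster summed to 38.7 ± 1.05 and 36.7 ± 2.56 CPM in clone 5 with HyT36 and with DMSO, against 61.8 ± 2.39 and 62.9 ± 2.48 CPM in clone 4 with HyT36 and with DMSO. The alpha cluster summed to 7.11 ± 0.962 and 6.05 ± 0.421 CPM in clone 5 with HyT36 and with DMSO, against 3.04 ± 0.578 and 3.21 ± 0.365 CPM in clone 4 with HyT36 and with DMSO. In each cluster the 6 libraries of clone 5 lay wholly on one side of the 6 libraries of clone 4. These sums are given as a description, with no test. The summed level of 11 neuronal markers also moved with the clone, at 554 to 606 CPM in clone 5 and 328 to 378 CPM in clone 4, nearly all of it TUBB3. Of the 6 tested, 4 were higher and 1 lower in clone 5 in both clone comparisons. The lower one was MAP2, by log2 differences of -3.89 with HyT36 and -4.11 with DMSO. STMN2, SNAP25, ELAVL3, ELAVL4 and DCX were at or near 0 in all libraries. The part of these markers in the protocadherin differences was not tested. Because alpha and gamma reads of shared exons may be missing, the cluster sums compare a cluster between clones and not the clusters with each other.

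**Figure D1:**
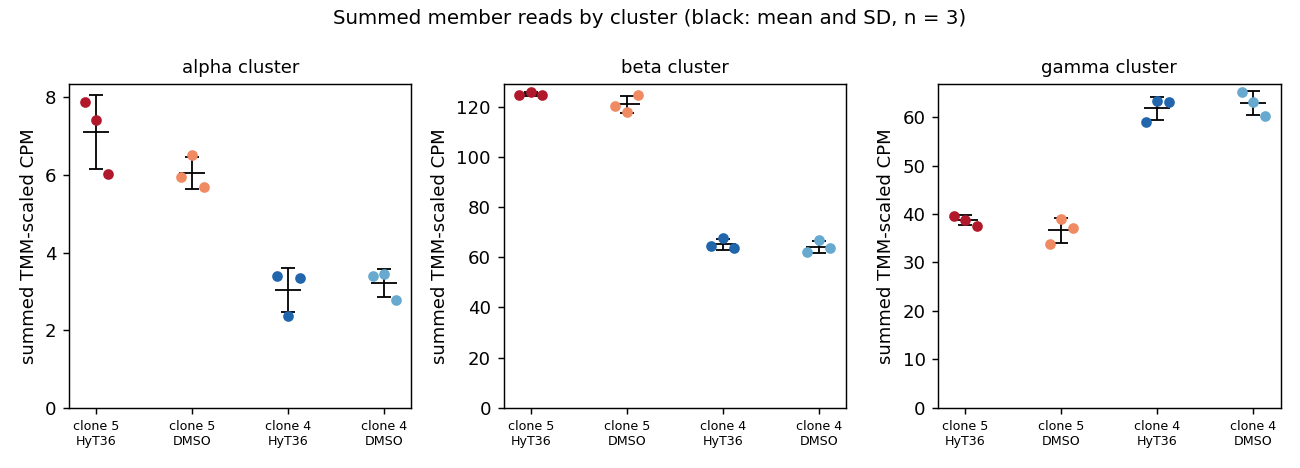
Summed TMM-scaled CPM of the alpha, beta and gamma members (vertical axes, from 0) in each of the 12 libraries, by group along the horizontal axis; points are libraries and black bars the mean and SD of 3. The clone 5 libraries sit above those of clone 4 for alpha and beta and below them for gamma.

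A member was called expressed in a clone when it reached 1 CPM in all 6 of its libraries, and low when it reached 1 CPM in none. By this measure clone 5 expressed 16 of the 53 members (30.2%, against 32.9% of all genes) and clone 4 expressed 15 (28.3%, against 32.7% of all genes), and 12 were expressed in both, as were 31.6% of all genes. In clone 5 these were PCDHA3 and PCDHAC2 of the alpha cluster, PCDHB3, PCDHB5, PCDHB8, PCDHB10, PCDHB12, PCDHB13, PCDHB14 and PCDHB16 of the beta cluster, and PCDHGA6, PCDHGA10, PCDHGA11, PCDHGB1, PCDHGB2 and PCDHGC3 of the gamma cluster. Clone 4 expressed no alpha member by this measure. PCDHA3 (0.851 to 2.20 CPM) and PCDHAC2 (0.916 to 1.40 CPM) were neither expressed nor low there, since they reached 1 CPM in some libraries. In all, 6 members in clone 5 and 5 in clone 4 were neither expressed nor low. Clone 4 expressed 8 beta members, which were PCDHB15 and all those of clone 5 but PCDHB10, and 7 gamma members: PCDHGA1, PCDHGA6, PCDHGA10, PCDHGB1, PCDHGB2, PCDHGB7 and PCDHGC3. At this minimum PCDHB15 was the only member expressed in one clone and low in the other, where 0.970% of all genes were. Another 29 members were low in both clones, among them 13 of the 15 alpha, 5 of the 16 beta and 11 of the 22 gamma isoforms. With a minimum of 0.5 CPM the counts of expressed members were 23 in clone 5 and 20 in clone 4, and with 2 CPM they were 10 in each. Of the alpha members, clone 5 expressed 3 and clone 4 expressed 2 at 0.5 CPM. Expressed in one clone and low in the other were then 1 gamma member at 0.5 CPM and 3 gamma members at 2 CPM, and no beta member. The shares of all genes were not counted at 0.5 and 2 CPM, so these counts have no background and only show how the result depends on the minimum.

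**Figure D2:**
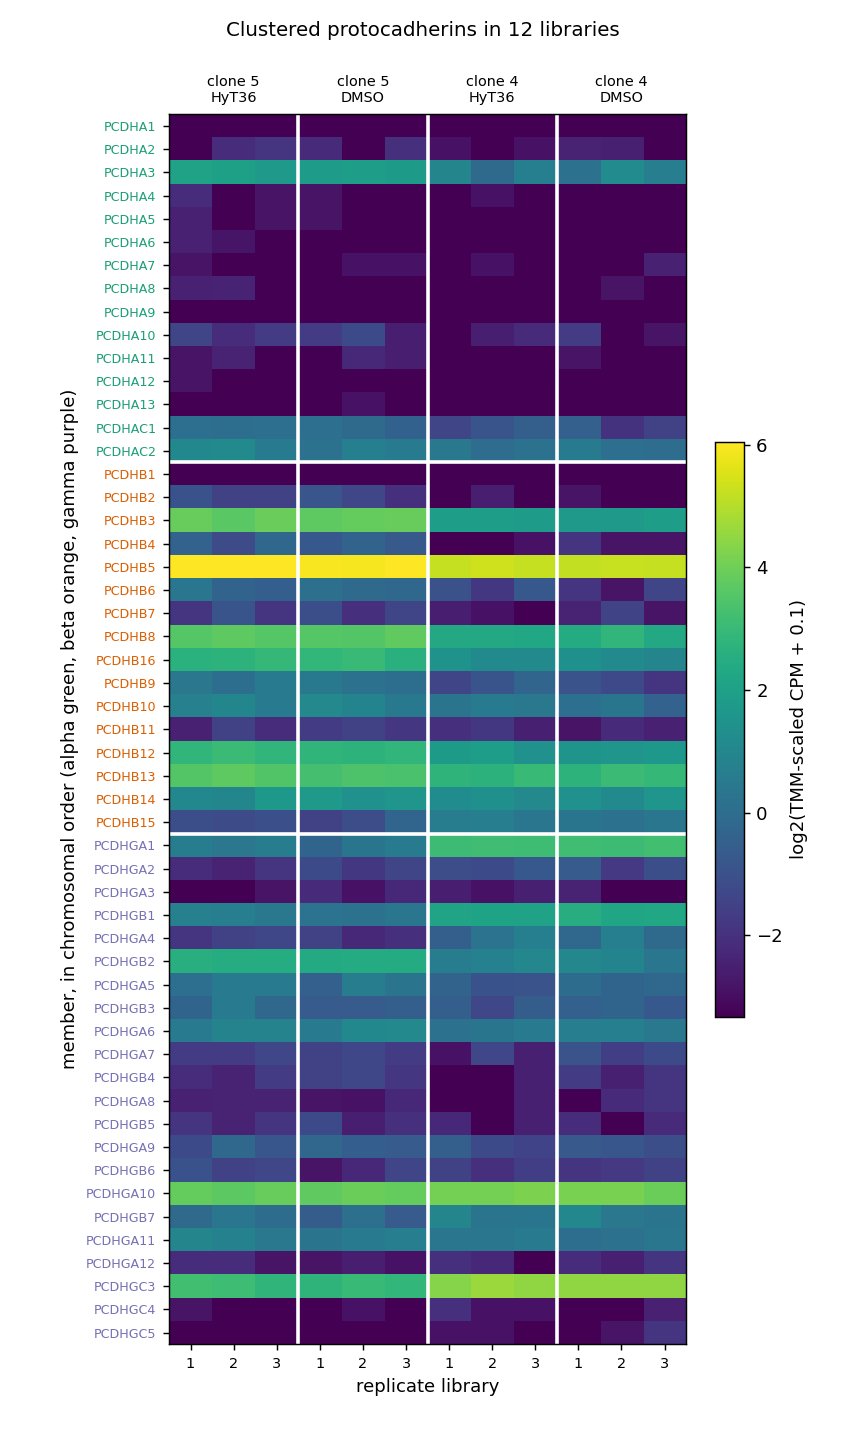
Level of the 53 members, in chromosomal order from top to bottom, in the 12 libraries, as log2 of TMM-scaled CPM plus 0.1 (colour scale); white lines part the groups and the clusters. PCDHB5 is the brightest line in all 12 libraries, PCDHB3 and PCDHGB2 are brighter in clone 5 than in clone 4, and PCDHGA1, PCDHGB1 and PCDHGC3 are brighter in clone 4.

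The stretch before each start site was read from RefSeq (GRCh38.p14), where 47 of the 53 members had an entry; PCDHA3, PCDHA13, PCDHB6, PCDHB11, PCDHGA12 and PCDHGC5 had none. A CGCT on the gene's strand lay within the 100 bases before the start in 44 of the 47 (93.6%), against 28.1% of the 27305 promoters in the table. On either strand, with AGCG counted as the reverse, it was in the same 44 members and in 44.7% of all promoters. In 38 of the 44 the first match began between 80 and 35 bases before the start. For PCDHGB2 the promoter entry starts 142 bases after the start of the gene in the RefSeq gene table, the only entry of the 47 to differ, and before the gene's own start a CGCT lies 57 bases upstream. Counted so, a choice made after seeing the data, 45 of the 47 (95.7%) held a CGCT. Among them were 17 of 18 promoters of members expressed in either clone and 24 of 25 of members low in both. These counts are of the bases CGCT alone and not of the whole conserved element. In PCDHGB7, for one, the place of the first CGCT of the similar PCDHGB6 stretch reads CGCC, and the CGCT found lies further along. The windows below are those of members that differ between the clones or stand for their cluster, each as 30 bases, 5′ to 3′ on the plus strand of chromosome 5, with the CGCT in capitals.
PCDHA4 (chr5:140806983-140807012): gccacatgatgtCGCTctttaccacaaaat
PCDHA8 (chr5:140841134-140841163): gccacatgatgtCGCTgtctaccaagaagt
PCDHAC1 (chr5:140926224-140926253): agaaggtgtggtCGCTcacgttcaccgtcc
PCDHAC2 (chr5:140966369-140966398): gcagtccgggttCGCTgtccgccacttcgg
PCDHB3 (chr5:141100397-141100426): aacgcatggtggCGCTgttgactaagaagg
PCDHB5 (chr5:141135183-141135212): gacgcctggtggCGCTgcaggctaagagtg
PCDHB15 (chr5:141245318-141245347): aacgcatggtggCGCTgcaggctaaggctt
PCDHB16 (chr5:141182314-141182343): aacgcgtggtggCGCTgcaggttaagatga
PCDHGA1 (chr5:141330407-141330436): gactgtgggcgcCGCTgttcactaatctgg
PCDHGB1 (chr5:141350029-141350058): acctctgggcgcCGCTgtcgaccaaaagga
PCDHGA4 (chr5:141354964-141354993): gactctgggtgtCGCTgttcaccaatcagg
PCDHGA10 (chr5:141412935-141412964): gactctgagcgcCGCTgttcacctactagg
PCDHGC3 (chr5:141475884-141475913): gactctgtgtgcCGCTgtcggccaatgaag

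The letters around the CGCT differed by cluster. GGTGGCGCT, which contains the CGCT, was within 100 bases before the start in 12 of 14 beta promoters and in 0 alpha or gamma promoters (all promoters 0.154%; either strand 12 members and 0.212%). ATGTCGCT was in 9 of 13 alpha promoters and in no other member (all promoters 0.0623%; either strand 9 members and 0.0806%). CGCCGCTG was in 10 of 20 gamma promoters and in no alpha or beta promoter (all promoters 0.670%; either strand 10 members and 1.36%). These 3 longer strings were chosen after the windows were seen, and each overlaps the CGCT. PCDHB15, which was lower in clone 5, has the same GGTGGCGCT as PCDHB3, PCDHB5 and PCDHB16, which were higher. A link between these strings and the clone difference was not tested. PCDHA9 and PCDHB8 had no CGCT on the gene's strand in the 100 bases searched. The PCDHB8 stretch closely resembles that of PCDHB13, and it ends at the start site where PCDHB13 goes on with tggCGCT. Bases after the start site were not searched, so PCDHB8 cannot be said to lack the CGCT. The stretch searched is shown for PCDHB8, which both clones expressed, and beside it the 30 bases around the CGCT before the gene start of PCDHGB2.
PCDHB8 (chr5:141177690-141177789): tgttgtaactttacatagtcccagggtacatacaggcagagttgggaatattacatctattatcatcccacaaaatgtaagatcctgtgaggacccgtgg
PCDHGB2 (chr5:141359925-141359954): acctctgagcgtCGCTgttggtcaaaagaa

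For the comparison of the clones, 27 members passed a filter on low counts and were tested with edgeR's quasi-likelihood test, adjusted by the Benjamini-Hochberg method over 14892 genes. With HyT36, 15 were higher and 6 lower in clone 5 than in clone 4, and with DMSO 13 were higher and 7 lower. The background was high: with HyT36 56.0% of all genes tested passed (27.0% higher, 28.9% lower), and with DMSO 55.5% (27.3% higher, 28.2% lower), while 77.8% and 74.1% of the tested members did. With at least a 2-fold change as well, 11 members were higher and 5 lower with HyT36 (all genes 7.34% and 5.28%), and 10 higher and 6 lower with DMSO (all genes 7.27% and 5.36%). A member that passed the filter only through the clone where it is high had to differ, so these shares are a description. The same holds for the p-values of such members, PCDHB4 among them. The median log2 difference over the 27 was 0.76 with HyT36 and 0.47 with DMSO, beside 0.00 over all genes in both. The libraries of the clones did not overlap in 17 of the 27 (63.0%, against 40.4% of all genes). The comparison with HyT36 and that with DMSO share no library, and 18 members passed in both in the same direction, 12 higher and 6 lower in clone 5, against 46.2% of all genes. Their log2 differences had the same sign in 26 of the 27 and a Pearson correlation of 0.912 over the 27 members, which share the 2 clones and the model. By cluster, with DMSO 10 of 12 tested beta members were higher and 1 lower, 1 of 12 tested gamma members was higher and 6 lower, and 2 of 3 tested alpha members were higher and 0 lower. With HyT36 the counts were 9 and 1 for beta, 3 and 5 for gamma, and 3 and 0 for alpha. Gamma members went both ways, from -2.65 to 1.75 with HyT36 around a median of 0.00, and the clusters were not tested against each other.

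**Figure D3:**
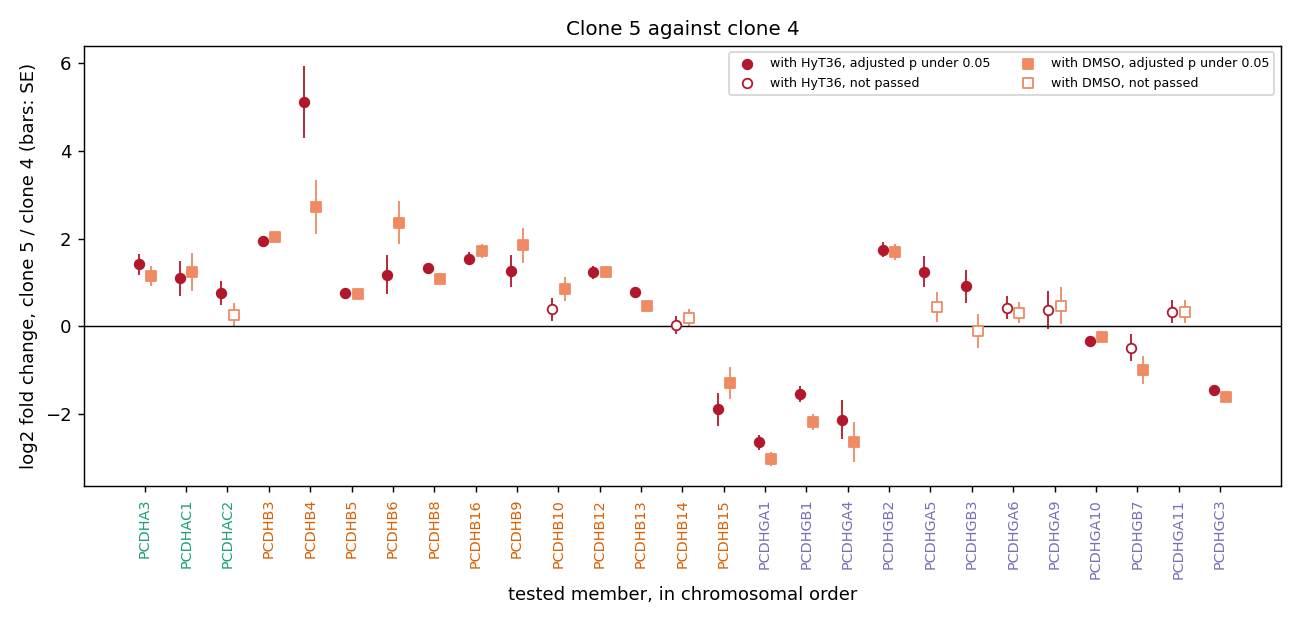
Fitted log2 fold change of clone 5 over clone 4 (vertical axis, bars are SE) for the 27 tested members in chromosomal order, with HyT36 (circles) and with DMSO (squares); filled symbols have an adjusted p under 0.05. Beta members lie above 0 except PCDHB15, and PCDHGA1, PCDHGB1, PCDHGA4 and PCDHGC3 lie below it; the values of PCDHB4 rest on few reads in clone 4 and depend on the prior count.

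In the alpha cluster, 1 alternate isoform and both C-type isoforms were tested, and the other 12 had at most 42 reads each in all 12 libraries together, 2 of them (PCDHA1 and PCDHA9) with 0. PCDHA3 had 4.14, 3.87 and 3.18 CPM in clone 5 with HyT36 and 3.54, 3.61 and 3.35 CPM with DMSO. Clone 4 had 1.80, 0.851 and 1.54 CPM with HyT36 and 1.02, 2.20 and 1.498 CPM with DMSO. All clone 5 libraries lay above all clone 4 libraries, and the log2 difference was 1.41 (SE 0.23, adjusted p = 4.34e-06) with HyT36 and 1.15 (SE 0.23, adjusted p = 8.78e-05) with DMSO. It held 52.0 to 59.4% of the alpha reads in the libraries of clone 5 and 30.0 to 63.6% in those of clone 4. PCDHAC1 had 0.963, 0.955 and 0.976 CPM in clone 5 with HyT36 and 0.958, 0.846 and 0.656 CPM with DMSO. Clone 4 had 0.289, 0.444 and 0.616 CPM with HyT36 and 0.635, 0.157 and 0.250 CPM with DMSO. The clones did not overlap, with log2 differences of 1.10 (SE 0.40, adjusted p = 0.0184) with HyT36 and 1.24 (SE 0.43, adjusted p = 0.0129) with DMSO. Within clone 4, PCDHAC1 was 0.444 to 0.635 CPM in the 3 libraries with the higher epithelial sum and 0.157 to 0.289 CPM in the other 3. These values rest on 4 to 16 reads per library. Such a parting was seen in 2 of the 27 tested members, against 10.8% of all genes, so it does not mark out the members. The part of those markers in the PCDHAC1 difference was not tested. PCDHAC2 had 1.97, 2.13 and 1.40 CPM in clone 5 with HyT36 and 1.04, 1.55 and 1.35 CPM with DMSO. Clone 4 had 1.26, 0.925 and 1.04 CPM with HyT36 and 1.40, 0.981 and 0.916 CPM with DMSO. The clones overlapped, and the difference passed with HyT36 at 0.76 (SE 0.27, adjusted p = 0.0149) but not with DMSO at 0.26 (SE 0.28, adjusted p = 0.434). The calls of both C-type isoforms depended on single libraries. For PCDHAC1 with DMSO the adjusted p was 0.1005 or 0.0623 without clone 4 DMSO replicate 2 or 3 and 0.0537 without clone 5 DMSO replicate 1, while without clone 4 DMSO replicate 1 the difference was 1.99. With HyT36 the adjusted p was 0.108 or 0.0522 without clone 4 HyT36 replicate 1 or 2. Among the DMSO libraries with an epithelial sum of 20 CPM or more, clone 4 had replicate 1 alone, and the PCDHAC1 difference was 0.36. For PCDHAC2 with HyT36 the adjusted p was 0.0690 without clone 4 replicate 2 and 0.0767 without clone 5 replicate 2.

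In the beta cluster, PCDHB5 led both clones. PCDHB5 had 65.8, 65.7 and 64.5 CPM in clone 5 with HyT36 and 62.4, 59.5 and 65.8 CPM with DMSO. Clone 4 had 37.5, 40.7 and 37.2 CPM with HyT36 and 36.2, 38.2 and 37.3 CPM with DMSO. Clone 5 lay above clone 4 without overlap, by log2 differences of 0.76 (SE 0.05, adjusted p = 4.11e-16) with HyT36 and 0.75 (SE 0.05, adjusted p = 1.15e-15) with DMSO. It held 50.5 to 52.9% of the beta reads in clone 5 and 57.2 to 60.1% in clone 4, so its share was lower in the clone where its level was higher. PCDHB3 had 14.4, 12.6 and 14.7 CPM in clone 5 with HyT36 and 13.2, 13.98 and 14.3 CPM with DMSO. Clone 4 had 3.64, 3.70 and 3.46 CPM with HyT36 and 3.22, 3.26 and 3.70 CPM with DMSO. This was a clear separation, with log2 differences of 1.95 (SE 0.11, adjusted p = 5.36e-19) with HyT36 and 2.03 (SE 0.11, adjusted p = 2.4e-19) with DMSO. PCDHB3 held 9.96 to 11.9% of the beta reads in clone 5 and 4.87 to 5.82% in clone 4. PCDHB16 had 6.28, 6.47 and 7.51 CPM in clone 5 with HyT36 and 7.29, 7.76 and 6.12 CPM with DMSO. Clone 4 had 2.67, 2.15 and 2.12 CPM with HyT36 and 2.497, 2.08 and 1.83 CPM with DMSO. The clones were again apart, by 1.54 (SE 0.16, adjusted p = 3.41e-11) with HyT36 and 1.72 (SE 0.16, adjusted p = 2.65e-12) with DMSO.

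PCDHB8 had 11.8, 12.9 and 11.8 CPM in clone 5 with HyT36 and 11.7, 11.4 and 13.5 CPM with DMSO. Clone 4 had 4.94, 4.96 and 4.62 CPM with HyT36 and 5.33, 7.06 and 4.95 CPM with DMSO. Its libraries did not overlap, and the log2 differences were 1.33 (SE 0.11, adjusted p = 4.88e-13) with HyT36 and 1.07 (SE 0.11, adjusted p = 1.09e-10) with DMSO. PCDHB12 had 7.07, 8.25 and 7.05 CPM in clone 5 with HyT36 and 6.87, 6.59 and 7.11 CPM with DMSO. Clone 4 had 3.32, 3.63 and 2.58 CPM with HyT36 and 2.75, 2.86 and 3.12 CPM with DMSO. The log2 differences were 1.23 (SE 0.14, adjusted p = 7.5e-10) with HyT36 and 1.23 (SE 0.14, adjusted p = 1.13e-09) with DMSO, with no overlap. PCDHB13 had 11.5, 13.1 and 11.1 CPM in clone 5 with HyT36 and 9.71, 10.7 and 10.2 CPM with DMSO. Clone 4 had 6.71, 6.33 and 7.81 CPM with HyT36 and 6.47, 8.24 and 7.41 CPM with DMSO. The clones were apart without overlap, at 0.77 (SE 0.11, adjusted p = 5.26e-08) with HyT36 and 0.47 (SE 0.11, adjusted p = 0.000281) with DMSO. PCDHB14 had 1.97, 1.87 and 3.10 CPM in clone 5 with HyT36 and 3.21, 2.54 and 2.84 CPM with DMSO. Clone 4 had 2.24, 2.48 and 2.04 CPM with HyT36 and 2.54, 2.12 and 2.83 CPM with DMSO. Here the clones overlapped and neither difference passed, at 0.04 (SE 0.21, adjusted p = 0.89) with HyT36 and 0.20 (SE 0.20, adjusted p = 0.42) with DMSO. PCDHB14 held a larger share of beta reads in clone 4, at 1.48 to 2.66% in clone 5 and 3.17 to 4.45% in clone 4.

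Among the weaker beta genes, PCDHB15 had 0.377, 0.347 and 0.382 CPM in clone 5 with HyT36 and 0.250, 0.368 and 0.729 CPM with DMSO. Clone 4 had 1.44, 1.52 and 1.19 CPM with HyT36 and 1.14, 1.06 and 1.17 CPM with DMSO. It was the only tested beta gene that was lower in clone 5, with every clone 5 library under every clone 4 library and a log2 difference of -1.90 (SE 0.37, adjusted p = 2.8e-05) with HyT36 and -1.30 (SE 0.36, adjusted p = 0.00219) with DMSO. PCDHB9 had 1.21, 0.955 and 1.36 CPM in clone 5 with HyT36 and 1.29, 1.07 and 0.948 CPM with DMSO. Clone 4 had 0.289, 0.444 and 0.731 CPM with HyT36 and 0.423, 0.314 and 0.166 CPM with DMSO. It was higher in clone 5 without overlap, by 1.27 (SE 0.37, adjusted p = 0.0034) with HyT36 and 1.85 (SE 0.40, adjusted p = 0.000142) with DMSO. In clone 4 it was 0.423 to 0.731 CPM in the 3 libraries with the higher epithelial sum and 0.166 to 0.314 CPM in the other 3. PCDHAC1 and PCDHB9 were the 2 of 27 tested members whose clone 4 libraries parted in this way, against 10.8% of all genes. The part of those markers in the PCDHB9 difference was not tested.

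PCDHB6 had 1.17, 0.695 and 0.594 CPM in clone 5 with HyT36 and 1.00, 0.846 and 0.765 CPM with DMSO. Clone 4 had 0.397, 0.185 and 0.5005 CPM with HyT36 and 0.169, 0.0392 and 0.291 CPM with DMSO. The clones did not overlap, with log2 differences of 1.18 (SE 0.44, adjusted p = 0.0206) with HyT36 and 2.36 (SE 0.50, adjusted p = 0.0001) with DMSO. The HyT36 call was lost without clone 4 HyT36 replicate 2 (adjusted p = 0.134) and without clone 5 HyT36 replicate 1 (adjusted p = 0.172), and the DMSO difference was 3.03 without clone 4 DMSO replicate 3. PCDHB10 had 1.59, 1.87 and 1.36 CPM in clone 5 with HyT36 and 2.04, 1.77 and 1.28 CPM with DMSO. Clone 4 had 1.12, 1.33 and 1.23 CPM with HyT36 and 0.973, 1.14 and 0.666 CPM with DMSO. The clones overlapped, and the difference was 0.39 (SE 0.27, adjusted p = 0.219) with HyT36 and 0.86 (SE 0.27, adjusted p = 0.00727) with DMSO. The DMSO call was lost without clone 4 DMSO replicate 3 (adjusted p = 0.0554) and without clone 5 DMSO replicate 1 (adjusted p = 0.0520).

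PCDHB4 and PCDHB2 were near absent in clone 4. PCDHB4 had 0.670, 0.347 and 0.764 CPM in clone 5 with HyT36 and 0.4999, 0.699 and 0.510 CPM with DMSO. Clone 4 had 0, 0 and 0.0385 CPM with HyT36 and 0.169, 0.0392 and 0.0416 CPM with DMSO. That is 42 reads in clone 5 and 1 read in clone 4 with HyT36, a ratio per gene count of 49.7 (exact 95% interval 8.45 to 2009), and 45 and 6 reads with DMSO, a ratio of 7.19 (3.06 to 20.6). The adjusted p was 1.44e-06 with HyT36 and 0.000264 with DMSO, and the sizes of the fitted folds depend on the prior count. With 0 to 4 reads per library in clone 4, PCDHB4 passed the filter on low counts through clone 5. Some difference was thus built in, and these p-values are a description. Without clone 4 HyT36 replicate 3, which holds the single read, the fitted difference was 6.92 in place of 5.11, and without clone 4 DMSO replicate 1 it was 3.67 in place of 2.72. PCDHB2, which did not pass the filter on low counts and was singled out after its values were seen, had 22 reads in clone 5 and 2 in clone 4 with HyT36, a ratio of 13.0 (3.20 to 114), and 23 and 1 with DMSO, a ratio of 22.05 (3.58 to 908). These intervals cover counting error only. The other 3 beta members that were not tested were PCDHB1, with 0 reads, and PCDHB7 and PCDHB11, with at most 52 reads each in all libraries together.

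Each beta gene has a RefSeq length, so the beta genes can be ordered by CPM per kilobase (mean ± SD over the 6 libraries of a clone; PCDHB1 was left out). In clone 5 PCDHB5 stood at 18.8 ± 0.749, PCDHB8 at 4.43 ± 0.31, PCDHB3 at 4.13 ± 0.244, PCDHB13 at 2.18 ± 0.233, PCDHB12 at 1.86 ± 0.148 and PCDHB16 at 1.80 ± 0.182 CPM per kilobase. PCDHB8 and PCDHB3 lay within about an SD of each other, and so did PCDHB12 and PCDHB16. In clone 4 PCDHB5 stood at 11.1 ± 0.447, PCDHB8 at 1.93 ± 0.322, PCDHB13 at 1.42 ± 0.154, PCDHB3 at 1.04 ± 0.0658, PCDHB12 at 0.790 ± 0.101 and PCDHB16 at 0.579 ± 0.0794 CPM per kilobase. The order was thus the same but for PCDHB3, which stood above PCDHB13 in clone 5 and below it in clone 4. The remaining beta genes were at or under 0.586 ± 0.129 in clone 5 and 0.537 ± 0.0673 in clone 4, both of PCDHB14.

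In the gamma cluster, PCDHGC3 and PCDHGA10 held most of the reads in both clones. PCDHGC3 had 9.13, 8.64 and 6.88 CPM in clone 5 with HyT36 and 6.75, 7.95 and 7.22 CPM with DMSO. Clone 4 had 20.3, 25.0 and 22.4 CPM with HyT36 and 22.1, 22.2 and 22.3 CPM with DMSO. Clone 5 lay wholly below clone 4, with a log2 difference of -1.45 (SE 0.09, adjusted p = 7.27e-17) with HyT36 and -1.60 (SE 0.09, adjusted p = 4.67e-18) with DMSO. PCDHGC3 made up 18.3 to 23.0% of the gamma reads in clone 5 and 33.9 to 39.4% in clone 4. The other C-type gamma isoforms were near absent: PCDHGC4 had at most 4 reads in a library and PCDHGC5 had 0 reads in clone 5 and 7 in clone 4. PCDHGA10 had 14.1, 12.9 and 14.5 CPM in clone 5 with HyT36 and 13.6, 15.4 and 14.3 CPM with DMSO. Clone 4 had 16.9, 17.1 and 18.2 CPM with HyT36 and 17.8, 18.0 and 15.2 CPM with DMSO. The ranges of the clones overlapped slightly, and the log2 difference was -0.33 (SE 0.08, adjusted p = 0.000769) with HyT36 and -0.24 (SE 0.08, adjusted p = 0.0135) with DMSO. The DMSO call was lost without clone 4 DMSO replicate 1 (adjusted p = 0.0564) or 2 (0.0791) and without clone 5 DMSO replicate 1 (0.0721). PCDHGA10 held 33.1 to 40.0% of the gamma reads in clone 5 and 25.1 to 28.8% in clone 4.

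PCDHGA1, PCDHGB1, PCDHGA4 and PCDHGB2 are the 4 tested gamma genes nearest the beta cluster. They had the largest differences among the tested gamma genes, 3 of them downward and 1 upward. This grouping by position was made after the values were seen and was not tested. PCDHGC3, the tested gamma gene furthest from the beta cluster, differed by nearly as much, at -1.45 with HyT36 and -1.60 with DMSO. PCDHGA2 and PCDHGA3, which lie between PCDHGA1 and PCDHGB1, were not tested. PCDHGA1 had 1.47, 1.22 and 1.44 CPM in clone 5 with HyT36 and 0.708, 1.14 and 1.35 CPM with DMSO. Clone 4 had 8.44, 8.85 and 8.66 CPM with HyT36 and 8.89, 8.40 and 9.03 CPM with DMSO. Clone 5 lay far below clone 4, with a log2 difference of -2.65 (SE 0.16, adjusted p = 1.08e-17) with HyT36 and -3.02 (SE 0.16, adjusted p = 3.33e-19) with DMSO, and the share of gamma reads was 2.09 to 3.84% in clone 5 and 13.3 to 15.0% in clone 4. PCDHGB1 had 1.59, 1.52 and 1.23 CPM in clone 5 with HyT36 and 1.08, 1.03 and 1.17 CPM with DMSO. Clone 4 had 4.33, 4.26 and 4.16 CPM with HyT36 and 5.63, 4.55 and 4.79 CPM with DMSO. It was lower in clone 5 without overlap, at -1.55 (SE 0.18, adjusted p = 1.94e-09) with HyT36 and -2.18 (SE 0.19, adjusted p = 3.88e-13) with DMSO. PCDHGA4 had 0.167, 0.261 and 0.297 CPM in clone 5 with HyT36 and 0.250, 0.110 and 0.146 CPM with DMSO. Clone 4 had 0.613, 1.07 and 1.54 CPM with HyT36 and 0.804, 1.53 and 0.832 CPM with DMSO. This too was lower in clone 5 without overlap, at -2.13 (SE 0.44, adjusted p = 8.45e-05) with HyT36 and -2.64 (SE 0.47, adjusted p = 7.09e-06) with DMSO, although the clone 4 libraries spread widely.

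PCDHGB2 had 5.90, 5.43 and 5.48 CPM in clone 5 with HyT36 and 5.12, 5.26 and 5.32 CPM with DMSO. Clone 4 had 1.44, 1.63 and 1.92 CPM with HyT36 and 1.90, 1.77 and 1.17 CPM with DMSO. PCDHGB2 went the other way from PCDHGA1, PCDHGB1 and PCDHGA4. It was higher in every clone 5 library than in any of clone 4, by 1.75 (SE 0.18, adjusted p = 3.54e-11) with HyT36 and 1.70 (SE 0.18, adjusted p = 1.19e-10) with DMSO. PCDHGB2 held 13.5 to 15.1% of the gamma reads in clone 5 and 1.93 to 3.05% in clone 4. PCDHGA5 had 0.963, 1.30 and 1.36 CPM in clone 5 with HyT36 and 0.625, 1.47 and 1.13 CPM with DMSO. Clone 4 had 0.685, 0.407 and 0.423 CPM with HyT36 and 0.889, 0.706 and 0.791 CPM with DMSO. The clones overlapped, and the difference passed with HyT36 alone, at 1.24 (SE 0.35, adjusted p = 0.00285) with HyT36 and 0.44 (SE 0.34, adjusted p = 0.27) with DMSO. PCDHGB3 had 0.712, 1.35 and 0.764 CPM in clone 5 with HyT36 and 0.542, 0.552 and 0.620 CPM with DMSO. Clone 4 had 0.613, 0.296 and 0.577 CPM with HyT36 and 0.635, 0.706 and 0.499 CPM with DMSO. The difference passed narrowly with HyT36 and not with DMSO, at 0.92 (SE 0.38, adjusted p = 0.0375) with HyT36 and -0.10 (SE 0.39, adjusted p = 0.84) with DMSO. That call was lost without clone 4 HyT36 replicate 2 or 3 (adjusted p = 0.202 and 0.0509) and without clone 5 HyT36 replicate 2 (0.281).

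Of the gamma genes further along, 3 more reached a mean of 1 CPM in some group. PCDHGB7 had 0.837, 1.17 and 0.891 CPM in clone 5 with HyT36 and 0.583, 0.993 and 0.547 CPM with DMSO. Clone 4 had 1.80, 1.11 and 1.15 CPM with HyT36 and 1.95, 1.22 and 1.12 CPM with DMSO. The difference was -0.49 (SE 0.31, adjusted p = 0.179) with HyT36 and -1.001 (SE 0.32, adjusted p = 0.00738) with DMSO, with overlapping libraries, and the DMSO call was lost without clone 4 DMSO replicate 1 (adjusted p = 0.0741). PCDHGA6 had 1.34, 1.74 and 1.74 CPM in clone 5 with HyT36 and 1.37, 1.95 and 2.00 CPM with DMSO. Clone 4 had 1.05, 1.15 and 1.39 CPM with HyT36 and 1.52, 1.53 and 1.249 CPM with DMSO. The clones overlapped and neither difference passed, at 0.43 (SE 0.25, adjusted p = 0.149) with HyT36 and 0.31 (SE 0.25, adjusted p = 0.285) with DMSO. PCDHGA11 had 1.80, 1.65 and 1.23 CPM in clone 5 with HyT36 and 1.12, 1.36 and 1.49 CPM with DMSO. Clone 4 had 1.19, 1.18 and 1.35 CPM with HyT36 and 0.931, 1.06 and 1.17 CPM with DMSO. Libraries overlapped here too and neither difference passed, at 0.33 (SE 0.26, adjusted p = 0.284) with HyT36 and 0.34 (SE 0.27, adjusted p = 0.291) with DMSO. PCDHGA9, the remaining tested gamma gene, was under 1 CPM in all 12 libraries and did not pass, at 0.37 (SE 0.44, adjusted p = 0.492) with HyT36 and 0.47 (SE 0.42, adjusted p = 0.356) with DMSO. The 10 gamma members that were not tested had 7 to 89 reads each in all libraries together, and no member that was not tested exceeded 0.550 CPM in a library.

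**Figure D4:**
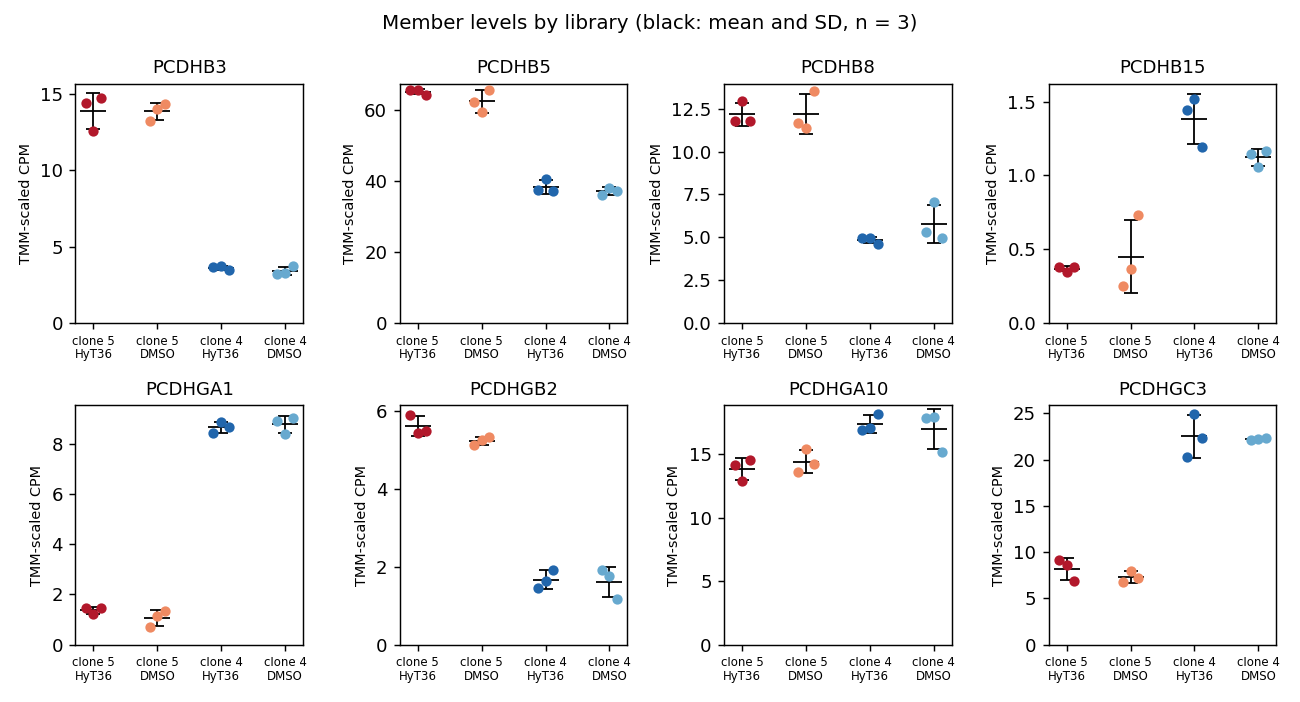
TMM-scaled CPM (vertical axes, from 0) of 8 members in each of the 12 libraries, by group; points are libraries and black bars the mean and SD of 3. PCDHB3, PCDHB5, PCDHB8 and PCDHGB2 sit higher in clone 5, PCDHB15, PCDHGA1 and PCDHGC3 sit higher in clone 4, and the PCDHGA10 ranges touch.

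HyT36 against DMSO gave no called member in either clone. With edgeR 0 of 27 passed in clone 5, where 8.19% of all genes did (3.35% higher, 4.83% lower), and 0 of 27 in clone 4, where 5.57% did (2.21% higher, 3.36% lower). The difference of the responses, clone 5 minus clone 4, passed for 0 of 27, against 0.302% of all genes (0.128% higher, 0.175% lower). Limma-voom also called 0 in each. DESeq2 called 0 too, but of the 26 members given with their values it gave an adjusted p for only 13 in clone 5 and 9 in clone 4. At an unadjusted p under 0.05 there was 1 member in clone 5, PCDHB13 at 0.22 (SE 0.10, adjusted p = 0.218), and 1 in clone 4, PCDHB8 at -0.26 (SE 0.12, adjusted p = 0.245). There were 2 for the difference of responses, PCDHB13 at 0.31 (SE 0.15, adjusted p = 0.621) and PCDHGB1 at 0.63 (SE 0.27, adjusted p = 0.525). The 4 members with a mean of at least 5 CPM in every group (PCDHB5, PCDHB13, PCDHGA10 and PCDHGC3) had log2 changes from -0.06 to 0.22 in clone 5 and from -0.09 to 0.05 in clone 4, and SEs of 0.05 to 0.10 and 0.05 to 0.11. The log2 change of PCDHB5 was 0.06 (SE 0.05, adjusted p = 0.543) in clone 5 and 0.05 (SE 0.05, adjusted p = 0.714) in clone 4. For weak members the SEs were far larger, up to 1.17 for PCDHB4 in clone 4. A change could also exceed its SE without passing, as PCDHB13 did in clone 5 and PCDHB8 in clone 4. Changes larger than their SE may thus have gone undetected at this depth. Over the 27 members the median log2 change was 0.10 in clone 5 and 0.02 in clone 4, beside 0.00 over all genes in both.

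**Figure D5:**
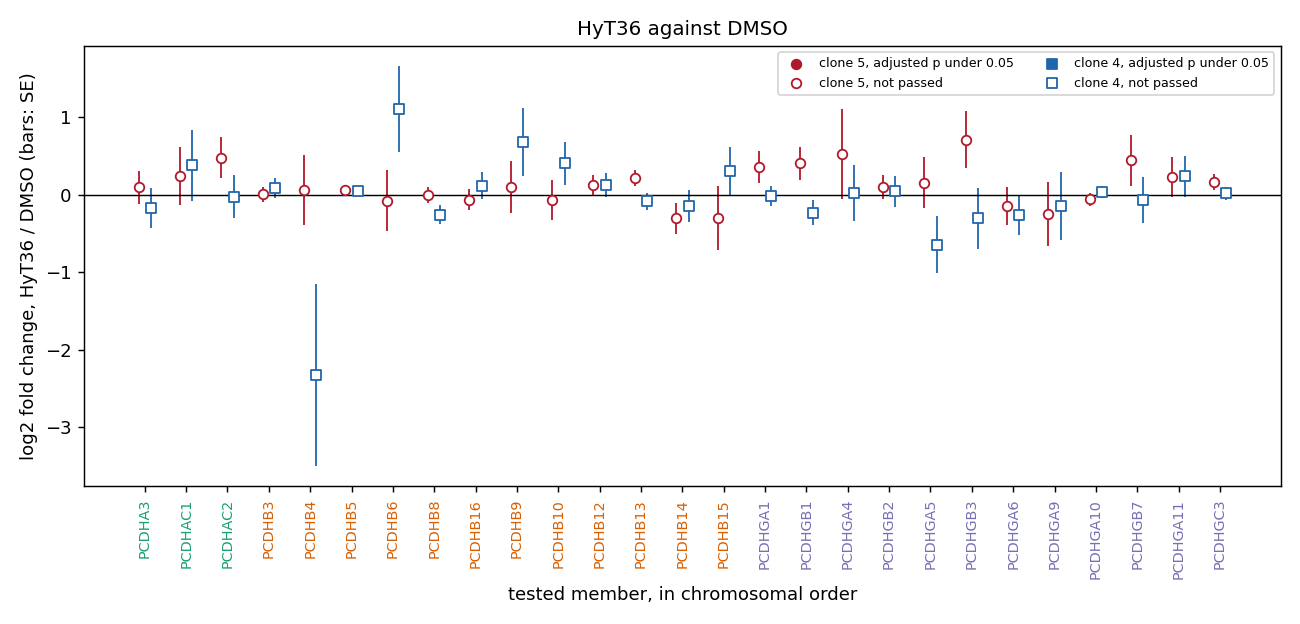
Fitted log2 fold change of HyT36 over DMSO (vertical axis, bars are SE) for the 27 tested members in chromosomal order, in clone 5 (circles) and clone 4 (squares). All symbols are open because no adjusted p was under 0.05; the low value of PCDHB4 in clone 4 rests on 1 read with HyT36 and 6 with DMSO.

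The regulators of protocadherin promoter choice all passed the filter on low counts, and more of them passed the clone test than did not. Of 27 genes for CTCF, cohesin and chromatin factors, 9 were higher and 9 lower in clone 5 with HyT36, and 9 higher and 12 lower with DMSO, against 56.0% and 55.5% of all genes called in either direction. The smallest p-values belonged to SMC1A, a cohesin ring subunit, with log2 differences of 0.93 (SE 0.04, adjusted p = 8.16e-24) with HyT36 and 0.84 (SE 0.04, adjusted p = 2.61e-22) with DMSO, and STAG2, another cohesin subunit, with 0.84 (SE 0.04, adjusted p = 5.48e-22) and 0.81 (SE 0.04, adjusted p = 1.99e-21). The other cohesin subunits of the list, RAD21, SMC3 and STAG1, are given beside them because they did not rise likewise. RAD21 was lower in clone 5, at -0.32 (SE 0.04, adjusted p = 8.46e-10) with HyT36 and -0.26 (SE 0.04, adjusted p = 9.87e-08) with DMSO. SMC3 did not pass, at 0.05 and -0.06. STAG1 was lower with DMSO, at -0.21 (SE 0.05, adjusted p = 0.000283), and did not pass with HyT36, at -0.06. EHMT2, a histone H3 methyltransferase, was lower, at -0.54 with HyT36 and -0.58 with DMSO. In response to HyT36, 7 of these 27 rose and 2 fell in clone 5, and 6 rose and 1 fell in clone 4, against 8.19% and 5.57% of all genes called in either direction. In clone 5 TET1, a DNA demethylating enzyme, rose by 0.28 (SE 0.04, adjusted p = 2.78e-05), SETDB1, a histone H3 methyltransferase, by 0.34 (SE 0.06, adjusted p = 0.000403) and its partner ATF7IP by 0.21 (SE 0.05, adjusted p = 0.00289), and MAU2, a cohesin loader subunit, fell by 0.23 (SE 0.05, adjusted p = 0.00395). In clone 4 REST, a repressor of neuronal genes, fell by 0.30 (SE 0.07, adjusted p = 0.00312), and CTCF rose by 0.15 (SE 0.04, adjusted p = 0.0110), ATF7IP by 0.18 (SE 0.05, adjusted p = 0.0191) and TET1 by 0.16 (SE 0.05, adjusted p = 0.0256), all on the log2 scale. The difference of responses passed for 0 of 27, with 4 at an unadjusted p under 0.05 by edgeR.

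Among 24 tested signalling partners and proteases of these proteins, 4 were higher and 12 lower in clone 5 with HyT36, and 4 higher and 13 lower with DMSO, against 56.0% and 55.5% of all genes called in either direction. The median log2 difference was -0.13 with HyT36 and -0.11 with DMSO. PRKCA, a protein kinase C, was higher by 0.87 with HyT36 and 0.91 with DMSO, and CYFIP2, a subunit of the WAVE complex that drives actin branching, by 0.48 and 0.42 with HyT36 and with DMSO. CYFIP1, its paralog, was lower, at -0.31 with HyT36 and -0.38 with DMSO, and so was APH1B, a gamma-secretase subunit, at -0.57 and -0.51. For HyT36 against DMSO 1 of the 24 passed in each clone, against 8.19% of all genes in clone 5 and 5.57% in clone 4. CYFIP1 rose by 0.14 (adjusted p = 0.0215) in clone 5 and RAC1, a small GTPase of the actin network, by 0.23 (adjusted p = 0.00223) in clone 4. Genes beside the clusters on chromosome 5 were mostly lower in clone 5, with 2 higher and 8 lower of 15 tested with HyT36, and 2 higher and 10 lower with DMSO (all genes 27.0% higher and 28.9% lower with HyT36, 27.3% and 28.2% with DMSO). The log2 difference was -1.74 with HyT36 and -1.92 with DMSO for ARAP3, -1.89 and -1.90 for RELL2, -0.62 and -0.58 for DELE1 and -0.23 and -0.29 for DIAPH1. For HyT36 against DMSO 0 of these 15 passed in either clone by edgeR, against the same 8.19% and 5.57% of all genes. At an unadjusted p under 0.05 there was 1 in clone 5 and 2 in clone 4.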

How the data were processed

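Per the labels' protocols, cell pellets were sent to a sequencing service, where polyA-selected RNA libraries were made. The authors deposited 1 table of raw counts per gene and library, not normalized, per the file headers. The submitters' processing notes name GRCh38 and Cell Ranger 7 but do not tie them to these libraries. The sources used here do not give the aligner, annotation or use of strand, so overlapping and antisense genes cannot be told apart. Unmapped (3.18 to 4.26%), multimapping (2.23 to 2.82%), no-feature (2.95 to 4.18%) and ambiguous (6.75 to 7.15%) entries and 22344 guide features (0.00831 to 0.0125%) entered neither library sizes nor tests. The series has 36 samples, of which 24 single-cell and guide samples were not analysed here.

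After filterByExpr by group and TMM scaling, tests were run in edgeR 4.0.16 (R 4.3.3). One quasi-likelihood model (robust, prior count 0.125) with a mean for each of 4 groups was fitted over 12 libraries, and p-values were adjusted by Benjamini-Hochberg over 14892 genes with a threshold of 0.05. Each SE was taken as the absolute log2 fold change over the square root of F. Alternatives were DESeq2 1.42.0, limma-voom 3.58.1, other scaling, no filter, a replicate block, only the groups compared, an epithelial covariate or subset, a 2-fold minimum, and leaving out each library. The code was tested on simulated data. The replicate numbers did not pair the libraries: the deviations of 18 same-numbered pairs correlated at -0.44 to 0.19, with 1 over 0.1.

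The members and the 8 gene lists (3 of markers) were chosen with earlier results of these data known. Values in every library are given for the 26 members with a group mean of at least 1 CPM or past the threshold in a comparison. Of each other list, up to 4 genes with the smallest p among those past the threshold were named, and others only where the text gives the reason. Promoter sequences and beta gene lengths are from RefSeq, GRCh38.p14. A gene picked by this naming rule is not reported here.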

Additional observations from a re-analysis of the deposited data

How the results depend on the processing

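No called difference of the 26 members given with their values changed sign under any alternative that gave a value. Leaving out 1 library at a time gave 12 to 16 members higher and 6 to 7 lower in clone 5 with HyT36, 11 to 14 higher and 5 to 7 lower with DMSO, 0 called for HyT36 in either clone or for the difference of responses, and 16 to 17 expressed in clone 5 and 15 to 16 in clone 4. The cluster sums then ranged from 6.73 to 7.65, 5.82 to 6.23, 2.86 to 3.37 and 3.09 to 3.42 CPM for alpha, from 125 to 125, 119 to 123, 64.0 to 66.1 and 62.9 to 65.2 CPM for beta, and from 38.2 to 39.3, 35.5 to 38.1, 61.1 to 63.2 and 61.7 to 64.2 CPM for gamma, in the order clone 5 HyT36, clone 5 DMSO, clone 4 HyT36, clone 4 DMSO. With plain library sizes, an alternative chosen after seeing the data, the beta sum of clone 5 with HyT36 was 126 CPM. At a minimum of 2 CPM, 10 members were expressed in clone 5. Among libraries with an epithelial sum under 20 CPM, clone 4 with HyT36 was left with replicate 1 alone. The log2 differences with HyT36 there were 0.54 for PCDHAC2, 1.05 for PCDHB6 and -1.32 for PCDHGA4. They were 0.82 for PCDHGA5, 0.61 for PCDHGB3 and -0.89 for PCDHGB7. Among those with 20 CPM or more, clone 4 with DMSO was left with replicate 1 alone. The differences with DMSO there were 0.36 for PCDHAC1, 1.73 for PCDHB4 and 0.79 for PCDHB10. These subsets hold too few libraries for calls, and differences are given only for members whose call changed. With the epithelial sum as a covariate, PCDHAC1 with DMSO and PCDHB6 and PCDHGB3 with HyT36 were lost. With the replicate block 14 members were higher and 6 lower with HyT36 and 13 higher and 7 lower with DMSO; PCDHGB3 was the only call lost (adjusted p = 0.0544), and 3 of 12 libraries correlated best with their own number. DESeq2 and the fit without a filter also lost PCDHGB3. Depth limits the weak members, since 1 CPM stood for 23.0 to 27.7 reads.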

Other observations

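The other cadherin families also differed between the clones. Of 11 tested non-clustered protocadherins, which lie outside the 3 clusters, 1 was higher and 7 lower in clone 5, with HyT36 and with DMSO alike in number; 56.0% and 55.5% of all genes were called in either direction, which is the background for each clone count here. The log2 difference was -2.72 with HyT36 and -2.89 with DMSO for PCDH1, -1.01 and -1.08 for PCDH18, -1.68 and -1.44 for PCDH9, and -3.22 and -3.57 for PCDH20. PCDH19 was the member that was higher, with 3.31, 3.95 and 3.57 CPM in clone 5 with HyT36 and 3.33, 2.83 and 3.13 CPM in clone 5 with DMSO, against 0.793, 0.962 and 1.00 CPM in clone 4 with HyT36 and 0.762, 0.785 and 0.708 CPM in clone 4 with DMSO. Its log2 difference was 1.97 with HyT36 and 2.04 with DMSO, and it was named because it was the only one in its direction. Of 6 tested classical and related cadherins, 1 was higher and 4 lower in each comparison: CDH6 at -1.05 with HyT36 and -1.14 with DMSO, CDH24 at -0.95 and -0.82, CDH2, the neural cadherin, at -0.17 and -0.26 and CDH9 at -1.72 and -2.24. CDH10, the only one in its direction, was higher by 0.12 and 0.18. In response to HyT36, 0 of 11 non-clustered protocadherins passed in either clone by edgeR, against 8.19% of all genes in clone 5 and 5.57% in clone 4 (3 in clone 5 and 1 in clone 4 at an unadjusted p under 0.05), and of the classical cadherins CDH2 rose by 0.15 in clone 5 (adjusted p = 0.0115).

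Of the 11 neuronal markers, 6 were tested, and 4 were higher and 1 lower in clone 5 in both clone comparisons. TUBB3, a neuronal tubulin, was higher by 0.67 with HyT36 and 0.66 with DMSO, GAP43 by 2.39 and 1.74 and SYT1, a synaptic vesicle protein, by 2.65 and 2.98, while MAP2 was lower, at -3.89 and -4.11. Of the HEK293 markers, 4 were tested, and 0 were higher and 3 lower in clone 5 in both comparisons: INA at -1.43 with HyT36 and -1.252 with DMSO, CKB at -0.20 and -0.16 and LIN28B at -0.16 and -0.18. Of the epithelial markers 14 were tested, and 0 were higher and 3 lower in clone 5 with HyT36, and 1 higher and 1 lower with DMSO.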
